A study of Mus musculus with 65 samples.

Results

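The binding of CTCF was compared between granulocyte-monocyte progenitors (GMP) and megakaryocyte-erythrocyte progenitors (MEP), the 2 myeloid progenitors that follow the common myeloid progenitor. Each population had 1 ChIP-seq library, and each library a deposited list of peaks. Peaks of which 50% or more of the bases are soft-masked repeats in GRCm38 were left out, and the 12000 strongest of the others, ranked by the −log10 p-value of the peak caller MACS, were kept for each cell type. A GMP-only site is one of the 12000 GMP peaks that overlaps no peak anywhere in the full MEP list, and a MEP-only site is the reverse. There were 2299 GMP-only and 612 MEP-only sites, 2911 in all, out of 34416 GMP and 15002 MEP peaks and of 544509 peaks in the 53 lists of the series.

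CTCF is a zinc finger protein that binds DNA at a long and well conserved motif and, with the cohesin ring, anchors chromatin loops and domain boundaries. Most of its sites are shared between cell types, and a minority vary and often lie near genes whose use changes. GMP give rise to neutrophils and monocytes under factors such as the C/EBP family and PU.1. MEP give rise to red cells and platelets under GATA1, KLF1, TAL1 and their partners.

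The study asked how chromatin length and cell number set the quality of ChIP-seq, and it mapped CTCF in 8 types of mouse primary blood cells (11 libraries) and CTCF and TAL1 in the erythroid cell line G1E-ER4+E2. Both populations came from bone marrow of male C57BL/6 mice of 5 to 8 weeks, were amassed from many mice in small sorted batches, were fixed for 15 minutes in 0.4% formaldehyde and were precipitated with an antiserum to CTCF. GMP were sorted as lineage-negative, cKit+, Sca1-, CD34+, CD16/32+ cells and MEP as lineage-negative, cKit+, Sca1-, CD34-, CD16/32- cells. The mean chromatin length was 217 bp in the GMP library, which the submitters assessed as Low Pass, and 283 bp in the MEP library, which they assessed as Pass.

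Peak lists hold no expression values, so the identity of the sorted cells was not checked against marker genes. With 1 library for each cell type no difference between them has a replicate check, and no p-value is given for one. Intervals are 95% Wilson intervals and cover counting error only. The lists give no read counts, so the depth is unknown, and a site bound in fewer cells cannot be told apart from a site bound more weakly in each cell.

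The 2 lists differed in make-up. In the GMP list 4407 peaks (12.8%) had a false discovery rate (FDR) of at most 0.05 and 18463 had an FDR of 1, whereas all 15002 MEP peaks were at or below 0.05. Repeats took 33.4% of the GMP and 5.46% of the MEP peaks. Among the other 9 primary libraries the lists ran from 6629 peaks (ERY replicate 2) to 36481 peaks (CFUMk replicate 1). The CMP library, the other one assessed as Low Pass, had 26316 peaks, of which 8.88% were at an FDR of at most 0.05.

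The DNA that these sites hold is shown first, since nearly all of them carried the CTCF motif. A matrix of 19 positions was learned from a G1E-ER4+E2 library that took no part in the comparison, and its most frequent base at each position reads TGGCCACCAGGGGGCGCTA. The best match of the matrix in the middle 400 bp of a peak is printed with 5 bases on either side, read 5′ to 3′ on the strand of the match from the GRCm38 genome, with the 19 matched bases in capitals. The GMP-only examples lie at regulators and a product of the granulocyte-monocyte fate, at an erythroid gene and at a stem cell gene, and the MEP-only examples at progenitor genes, an erythroid gene and the 2 strongest sites of the set.
Cebpa, GMP-only (chr7:35118323-35118341, minus strand): cacagGGGCCGCGAGAGGGCAGGGtgttg
Cebpb, GMP-only (chr2:167688666-167688684, plus strand): cgcgtCCTCCAGCAGGGGGCGGGCggcgg
Maf, GMP-only (chr8:115709598-115709616, minus strand): aagctTTGCCGAAAGGTGGCGCTGttgag
Ngp, GMP-only (chr9:110413977-110413995, plus strand): tcactTGGCCAGCAGATGGCGCGAaggcc
Tfrc, GMP-only (chr16:32638654-32638672, plus strand): ctagaTGTCCACCAGGGGGCGCCGggact
Erg, GMP-only (chr16:95570808-95570826, minus strand): cacagAGGCCAGAAGAGGGCGACAgattt
Rhag, MEP-only (chr17:40824042-40824060, minus strand): gatttCTGCCACAAGAGGGCATAAgcgct
Cd34, MEP-only (chr1:194962370-194962388, minus strand): cagcaGGGCCAGCAGGTGGTGCCAttgct
Runx1, MEP-only (chr16:92708834-92708852, plus strand): cacagAAGCCAGAGGAGGGCGCTGaatcc
Tut7, MEP-only (chr13:59842983-59843001, plus strand): tatagCAACCACGAGGTGGCAGCAaatca
Ilkap, MEP-only (chr1:91380675-91380693, minus strand): gacggTAGCCACAAGGGGGCAGCAgtgtg

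The first question was how far the strong CTCF sites of one progenitor were missing from the other. Of the 12000 strongest GMP peaks 19.2% had no MEP peak, and of the 12000 strongest MEP peaks 5.1% had no GMP peak. These shares are not alike in meaning, because a MEP peak was looked for in a list of 34416 and a GMP peak in one of 15002. When the 12000 strongest peaks of each list were set against each other alone, 3176 GMP peaks and 3188 MEP peaks had no partner. Lists of equal length must give nearly equal numbers without a partner, because overlapping peaks mostly come in pairs. This comparison therefore cannot show whether either cell type had an excess. The excess of GMP-only over MEP-only sites was seen against the full lists, which differ in length.

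The strongest peaks were shared. Among the 1000 strongest GMP peaks 20 (2.0%) had no MEP peak, and the share rose in each further 1000 to 417 (41.7%) at ranks 11001 to 12000. Among the 1000 strongest MEP peaks none was missing from the GMP list, and at ranks 11001 to 12000 155 (15.5%) were. The median −log10 p was 15.6 for GMP-only sites and 22.2 for GMP peaks with a MEP partner, and 7.496 for MEP-only sites and 11.3 for MEP peaks with a GMP partner. Across the 9701 GMP peaks with a partner, Spearman's rho between the −log10 p of the GMP peak and that of its strongest MEP partner was 0.51, a description over sites that share 2 libraries. The rank limit itself fell at a −log10 p of 12.1 in GMP on both sides of it, and of 6.12 just inside and 6.11 just outside in MEP. Only 217 GMP-only sites (9.44%) had an FDR of at most 0.05, compared with 41.5% of the GMP peaks with a partner.

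**Figure D1:**
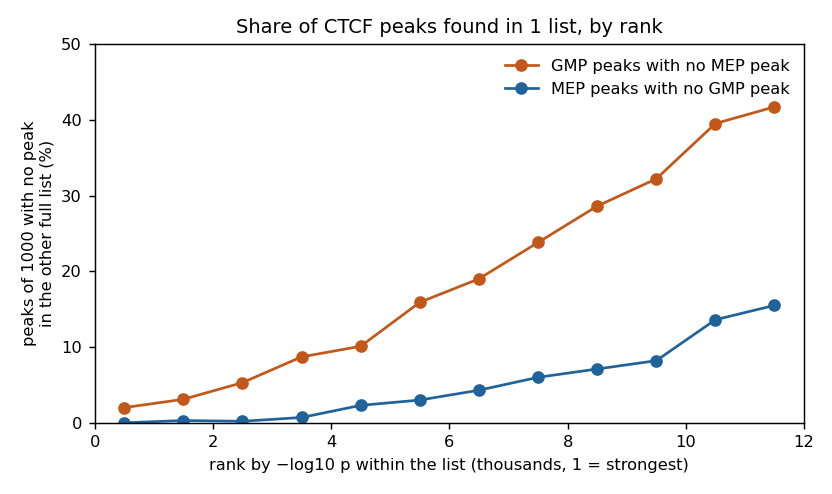
Share of peaks with no peak in the other full list (y axis, percent of 1000 peaks) against the rank of the peak in its own list by −log10 p (x axis, strongest first), with GMP peaks in orange and MEP peaks in blue. Both curves start near 0 and rise with weaker rank, to 41.7% in GMP and 15.5% in MEP.

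The motif was nearly as frequent as at shared sites. A match at p of 0.0001 per position was found in 2100 GMP-only sites (91.3%, 95% interval 90.1 to 92.4) and 575 MEP-only sites (94.0%, 91.8 to 95.6). GMP peaks with a MEP partner had 95.3% and MEP peaks with a GMP partner 95.9%. In windows of the same length 10 kb away the share was 15.3% for GMP-only and 15.5% for MEP-only sites. Within the middle 200 bp alone the shares were 73.6% for GMP-only and 85.3% for MEP-only sites. The matches of GMP-only sites held a CpG at positions 15 and 16 of the matrix in 40.3% (38.2 to 42.4), those of MEP-only sites in 32.9% (29.2 to 36.8), and those of the partnered peaks in 44.3% (GMP) and 42.4% (MEP).

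The sets differed in where they lay. A GMP-only site overlapped the 2000 bp around a transcript start in 539 cases (23.4%, 21.8 to 25.2), a MEP-only site in 73 (11.9%, 9.60 to 14.7). Partnered peaks lay between them, at 20.1% for GMP and 18.5% for MEP. Introns held 34.9% of the GMP-only and 45.9% of the MEP-only sites, and intergenic DNA held 36.1% and 36.8%. With equally long lists the promoter shares were 21.95% and 11.7%. The GC content moved with it, at a median of 49.1% in GMP-only and 45.6% in MEP-only sites, and GMP-only sites at promoters had a median of 58.2% and 5.12 CpG per 100 bp. Chromatin length and library quality differed between the libraries too, and their part in the promoter share was not tested.

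Chromosome X held 65 GMP-only sites (2.83%, 2.22 to 3.59) and 4 MEP-only sites (0.65%, 0.25 to 1.67). Of the partnered peaks 0.52% (GMP) and 0.47% (MEP) lay there. Both shares of the sets, 2.83% and 0.65%, were near those of their own full lists. The full GMP list had 1089 peaks on chromosome X (3.16% of the list) and 301 on chromosome Y. The full MEP list had 97 (0.65%) and 0. The other Low Pass library, CMP, had 887 and 225, and the remaining 8 lists had 39 to 790 on chromosome X and 0 to 45 on chromosome Y. All these cells came from male mice by the study's methods.

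The very strongest GMP-only sites were in duplicated DNA. Of the 10 highest by −log10 p, 6 lay on chromosome 14 between 2 and 8 Mb, where many near-identical predicted genes (Gm3752, Gm3512, Gm3696, Gm3020, Gm8362 and Gm3194 at these sites) stand in a row, 1 lay near Gm9780 further along that chromosome, and 3 lay on chromosome 4 by Ccl21b, a chemokine gene with close copies, and 4930578G10Rik. Exactly the same 29 bases stood at 29 GMP-only sites of chromosome 14. They are shown because they mark these sites as copies of 1 sequence.
Gm3512, GMP-only (chr14:7173586-7173604, plus strand): gctctCAACAGGCAGAGGGCGCACctgag
Reads from such copies can be placed on any of them, so these sites are uncertain as separate binding events. Across the whole set 160 of the 2100 GMP-only matches (7.62%) shared all 29 bases with another, against 2.10% in the GMP peaks with a MEP partner and none of the 575 MEP-only matches. The window on chromosome 14 held 104 peaks of the full GMP list and 8 of the full MEP list.

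The 10 strongest MEP-only sites were single-copy by this measure and reached a −log10 p of 20.8. The first lay 19874 bp upstream of Tut7, which encodes a uridyltransferase that tails RNA, and was called in 8 of the other 9 primary libraries, at a −log10 p of 24.96 and 15.0 in LSK, 23.01 in CFUE, 15.0 and 14.8 in ERY, 63.6 in CFUMk and 47.3 and 36.3 in iMk. CMP was the library without it. The second lay in an intron of Ilkap, which encodes a phosphatase partner of integrin-linked kinase, and was called in 7 of the 9. The third overlapped an exon of Rsad2, an antiviral gene, and was called in 8 of the 9. Gse1, Pde4d, Olfr996, Map3k7, Srfbp1, Zfp217 and Upp2 were nearest to the other 7, which were called in 4 to 9 of the 9. In the G1E-ER4+E2 cell line 7 of the 10 sites were called in at least 13 of the 14 CTCF libraries used here, those near Olfr996 and Zfp217 in 7, and the one in Upp2 in none. The site in Gse1 ended 44 bp from a GMP peak.

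Which other blood cells held these sites was read from the remaining primary lists, which the choice of members did not use. LSK cells are the lineage-negative Sca1+ cKit+ cells that include stem cells, CMP the common myeloid progenitors, CFUE and ERY erythroid colony-forming cells and erythroblasts, CFUMk the colony-forming cells of megakaryocytes, and iMk the CD41+, CD61+, cKit- megakaryocytes. In LSK replicate 1, 59.6% of GMP-only and 67.8% of MEP-only sites were called, against 88.5% and 92.9% of all 12000 GMP and MEP peaks. LSK replicate 2 had 85.1% and 87.4% (96.5% and 98.1% of all). CMP had 60.3% and 49.7% (83.9% and 83.7% of all). Both sets were less often called than the strong peaks at large in each of these 3 libraries. The sites were chosen as missing from 1 CTCF list and were weaker in rank. The lower share therefore cannot be read as a trait of the sets, and no share matched for rank is given.

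The erythroid lists, the shortest, held few of either. CFUE had 16.4% of GMP-only and 15.2% of MEP-only sites (48.1% and 49.6% of all). ERY replicate 1 had 10.2% and 15.2% (45.4% and 48.5% of all), and ERY replicate 2 had 9.79% and 12.3% (38.5% and 40.3% of all). Only 77 GMP-only sites (3.35%) and 20 MEP-only sites (3.27%) were called in all 3 erythroid libraries. At least 1 of the 3 held 538 GMP-only (23.4%) and 165 MEP-only sites (27.0%), so most of both sets were called in none.

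The megakaryocyte lists held most of both. CFUMk had 96.9% of GMP-only and 98.2% of MEP-only sites (99.4% and 99.8% of all). In iMk replicate 1 the shares were 62.6% and 64.7% (89.0% and 92.3% of all), and in iMk replicate 2 they were 70.0% and 67.5% (91.5% and 93.8% of all). All 3 megakaryocyte libraries held 1298 GMP-only (56.5%) and 347 MEP-only sites (56.7%).

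**Figure D2:**
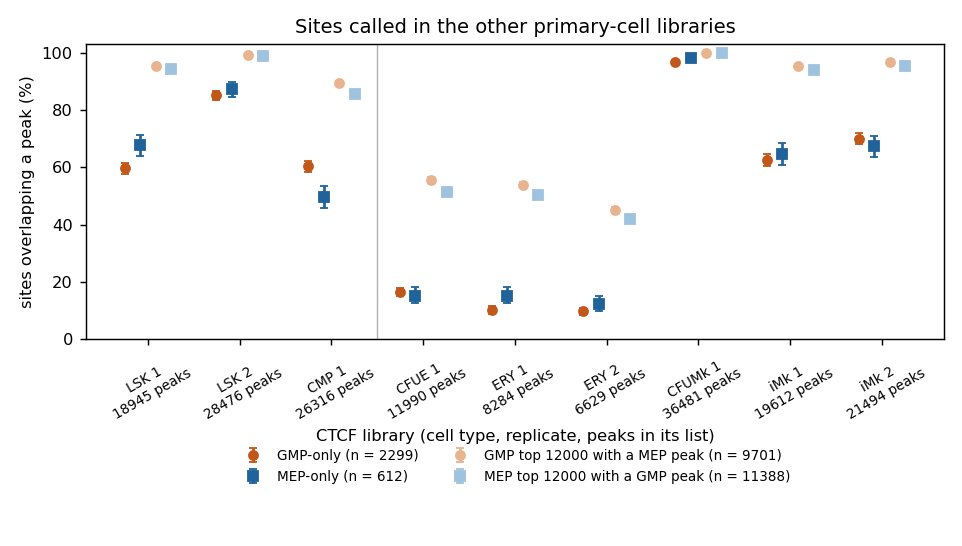
Percent of sites that overlap a peak (y axis) in each of the 9 other primary libraries (x axis, with the number of peaks in each list), for GMP-only (dark orange), MEP-only (dark blue) and the partnered GMP and MEP peaks (light). Bars are 95% Wilson intervals. The dark points lie below the light ones in every library and follow the same course, from 9.79% and 12.3% in ERY replicate 2 to 96.9% and 98.2% in CFUMk.

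No lineage pattern was detected in these calls, by tests that had little room to find one. The share of MEP-only sites called was 45.5% ± 36.3 (SD, n = 6) in the erythroid and megakaryocyte libraries and 68.3% ± 18.9 (SD, n = 3) in the LSK and CMP libraries, a difference of -22.8 percentage points (two-sided exact permutation test, p = 0.333, Benjamini-Hochberg adjusted over the 3 tests p = 0.571). For GMP-only sites the shares were 44.3% ± 37.1 and 68.3% ± 14.5, a difference of -24.0 points (exact permutation p = 0.381, adjusted p = 0.571). The share of MEP-only minus that of GMP-only sites was 1.20 ± 2.71 points in the 6 libraries and -0.03 ± 9.63 points in the 3, a difference of 1.23 points (exact permutation p = 0.714, adjusted p = 0.714), and it became -4.06 points without the CMP library. The smallest p that 6 against 3 libraries can give is 0.0238. The number of peaks in the other lists, from 6629 to 36481, moved with the share called.

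When lists of more than 10000 peaks were cut to their 10000 strongest, the shares spanned a narrower range, while the 2 ERY lists, with 8284 and 6629 peaks, were shorter and stayed whole. MEP-only sites were then called in 12.3% to 25.3% of cases in the 6 erythroid and megakaryocyte libraries and in 17.3% to 22.7% in the 3 LSK and CMP libraries. GMP-only sites were called in 9.79% to 21.2% in the 6 and in 20.1% to 27.8% in the 3, with the CMP library highest and the ERY libraries lowest. The difference for GMP-only sites was -8.30 points (exact permutation p = 0.0476, adjusted p = 0.143), in which the CMP library, Low Pass like the GMP library, was part of the smaller group and the shorter ERY lists part of the larger.

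CMP was also set against LSK replicate 1 site by site. Of the GMP-only sites 446 (19.4%) were called in CMP and not in LSK replicate 1, and 430 (18.7%) the other way round. Of the MEP-only sites 65 (10.6%) were called in CMP and not in LSK replicate 1, and 176 (28.8%) the other way round. LSK replicate 2 held more of both sets than CMP did. Library quality moved with this split, CMP and GMP being the Low Pass libraries, and its part was not tested.

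Few sites were called in GMP or MEP alone, with the long CFUMk list by itself holding 96.9% of GMP-only and 98.2% of MEP-only sites. In none of the 9 other libraries were 42 GMP-only sites (1.83%) and 7 MEP-only sites (1.14%) called, of which 17 and 2 had a motif match. Of the 9701 GMP and 11388 MEP partnered peaks, 0 went uncalled in all 9. All 9 held 45 GMP-only (1.96%) and 9 MEP-only sites (1.47%), compared with 33.1% (GMP) and 29.4% (MEP) of the partnered peaks. No MEP-only site was called in all 6 erythroid and megakaryocyte libraries and in no LSK or CMP library. Counting error alone allows up to 3 of 612 sites (0.490%). No GMP-only site was called in all 3 LSK and CMP libraries and in none of the 6, where the same bound is 3 of 2299 (0.13%). These 2 absences say little, because LSK replicate 2 held 87.4% of MEP-only sites and CFUMk, 1 of the 6, nearly all GMP-only sites. In the G1E-ER4+E2 cell line 61.5% of GMP-only and 79.1% of MEP-only sites were called in at least 1 of the 14 libraries, compared with 89.8% of both partnered sets. A TAL1 peak of that line lay at 32 GMP-only (1.39%) and 14 MEP-only sites (2.29%), compared with 2.57% (GMP) and 2.48% (MEP) of the partnered peaks.

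Genes of the 2 fates were taken from lists of regulators, surface proteins and products, and a gene counted when a site lay in it or within 10 kb. Among all 21911 protein-coding genes 9.81% had a GMP-only site and 2.64% a MEP-only site, and 62.6% had any GMP peak and 44.5% any MEP peak. Of 67 granulocyte-monocyte genes 10 (14.9%) had a GMP-only site and none had a MEP-only site. Of 77 erythroid and megakaryocyte genes 6 (7.79%) had a GMP-only site and 1 (1.299%) had a MEP-only site. Against the full lists the Wilson interval of the GMP-only share was 8.31 to 25.3% for granulocyte-monocyte genes. For erythroid and megakaryocyte genes it was 3.62 to 15.98%, and both intervals hold the share of all genes. With equally long lists 12.99% of these 77 genes had a GMP-only and 12.99% a MEP-only site, and of the granulocyte-monocyte genes 19.4% and 4.48%. The share of all genes was not computed for that setting.

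Transcription factors of the granulocyte-monocyte fate gave the highest share of the 11 lists read, 6 of 20 (30%, 14.5 to 51.9), above the 9.81% of all genes. They were Cebpa, Cebpb, Klf4, Egr1, Maf and Batf3. Genes of this list were also rich in CTCF peaks of any kind, with a GMP peak at 17 of the 20 (85.0%) and a MEP peak at 13 (65.0%). With only GMP peaks at an FDR of at most 0.05, 1 of the 67 granulocyte-monocyte genes kept a site, Cebpb.

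Cebpa encodes C/EBPα, the factor that GMP need to form. Its GMP-only site (chr7:35117969-35118609) lay at the promoter, with its middle 1004 bp upstream of the start, at a −log10 p of 16.6 in GMP. It was called at 5.48 and 8.45 in LSK, 11.5 in CMP, 186.0 in CFUMk and 11.8 in iMk replicate 2, and in neither ERY library, CFUE nor iMk replicate 1. A second GMP peak at the start itself, at 59.99, had a MEP partner at 14.6, and that MEP peak ended 301 bp from the GMP-only site. CFUMk held both positions as 1 peak. The site is no longer GMP-only when peaks within 500 bp count as shared.

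Cebpb encodes C/EBPβ, which serves monocytes and emergency granulopoiesis. Its GMP-only site (chr2:167688199-167689167) covered the start of the gene at a −log10 p of 31.3 and an FDR of 0.014. It was called at 6.56 and 12.97 in LSK, 19.5 in CMP, 7.41 in CFUE, 48.3 in CFUMk and 10.1 and 14.9 in iMk, so that only MEP and the 2 ERY libraries lacked it. Sites further upstream of Cebpb were called in both GMP and MEP. The nearest MEP peak stood 2463 bp away at 29.6.

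**Figure D3:**
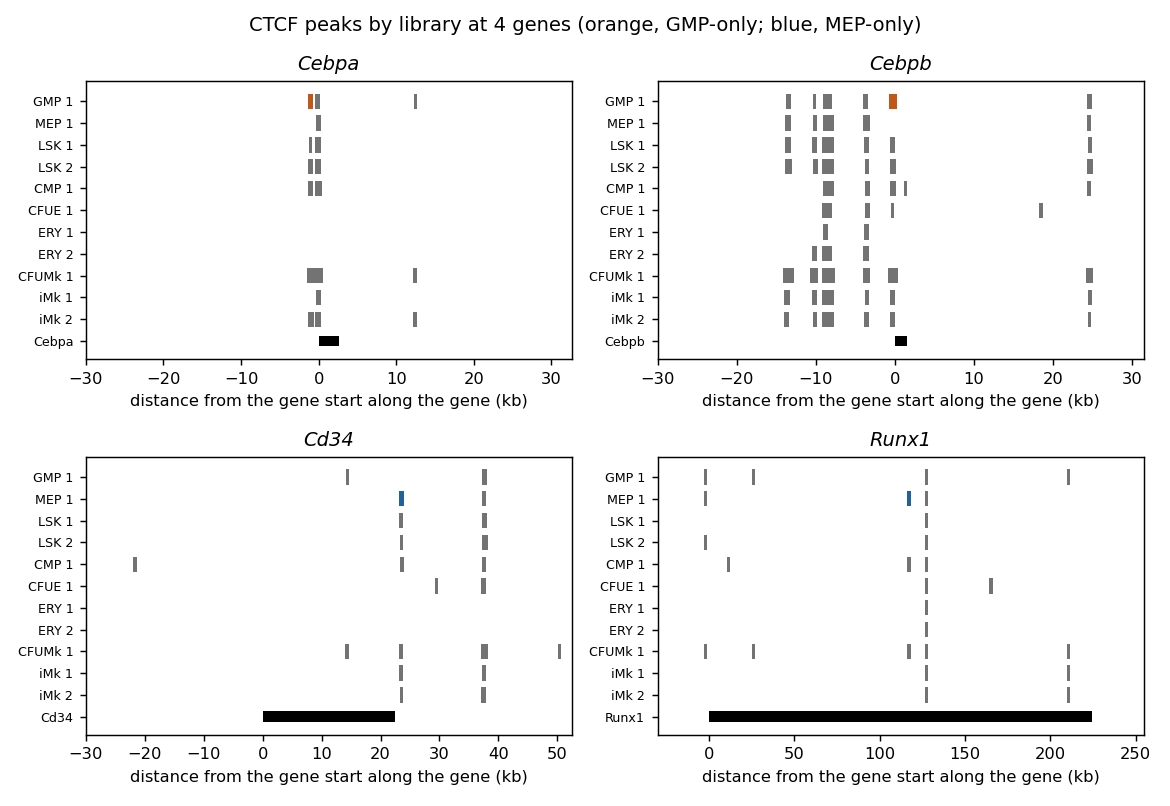
CTCF peaks of the 11 primary libraries (rows) at Cebpa, Cebpb, Cd34 and Runx1, against the distance from the start of the gene along its direction (x axis, kb), with the gene as a black bar, GMP-only sites in orange, MEP-only sites in blue and other peaks in grey (narrow peaks are drawn at a minimum width). The orange sites stand just upstream of Cebpa and at the start of Cebpb, 301 and 2463 bp from the nearest MEP peak, and the blue sites 1108 bp past the end of Cd34 and inside Runx1.

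Klf4, a factor of monocytes and stem cells, had a GMP-only site at its promoter at 17.5, called in LSK replicate 2 at 14.2, in CMP at 9.44 and in CFUMk at 24.1, with a MEP peak 604 bp away. It had no motif match. Maf, a macrophage factor, had its only GMP peak 1975 bp upstream of its start at 15.8, and the nearest MEP peak stood 728775 bp away. The site was called in 6 of the 9 libraries, none of them erythroid. Batf3, a dendritic cell factor, had 2 GMP-only sites and no MEP peak, one over its start at 18.9 and one 3195 bp upstream at 14.6, each called in 5 of the 9 libraries. The Batf3 site over the start had no motif match either. Egr1, a monocyte factor, had a GMP-only site 4533 bp upstream at 13.5, called in CMP, CFUE and CFUMk, beside 2 other GMP peaks.

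Products of granulocytes and monocytes had a site in 4 of 24 genes (16.7%, 6.68 to 35.85), an interval that holds the 9.81% of all genes. Prtn3, the neutrophil protease proteinase 3, had one upstream in an exon of Plppr3 at a −log10 p of 16.1. Ngp, a protein of neutrophil granules, had one 5804 bp upstream at 12.8, near the rank limit of 12.1. Anxa1, an anti-inflammatory protein of neutrophils, had one beyond the 3′ end at 20.03. These 3 sites had a motif match, were called in CFUMk and LSK replicate 2, and were not called in CFUE or ERY. Most GMP-only sites were likewise called in no erythroid library.

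Receptors and surface proteins of this fate had no GMP-only or MEP-only site at any of 23 genes. The Wilson interval of 0 to 14.3% holds the shares of all genes, 9.81% and 2.64%. Csf2rb, the shared chain of the GM-CSF and IL-3 receptors, had 4 GMP and 2 MEP peaks, the strongest at 37.2 and 26.1. Cx3cr1, a monocyte chemokine receptor, had 10 and 5. Csf3r and Cxcr2 had no peak in either list.

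Erythroid genes with a GMP-only site numbered 2 of 20 regulators (10.0%) and 4 of 32 products (12.5%), near the 9.81% of all genes. Tfrc, the transferrin receptor that brings iron into erythroblasts, had the strongest (chr16:32638340-32638868), at a −log10 p of 35.9 and rank 1633 in GMP. The site was nearer to Tnk2 and lay past the end of Tfrc, 29621 bp from its start. It was called in 8 of the 9 other libraries, at 5.66 and 27.0 in LSK, 22.1 in CFUE, 14.5 and 13.8 in ERY, 69.1 in CFUMk and 22.2 and 28.5 in iMk, and in 12 of the 14 G1E-ER4+E2 libraries. All 6 erythroid and megakaryocyte libraries held it, while MEP and CMP did not. Slc25a37, the mitochondrial iron importer, had a promoter site at 26.4 in GMP, which all 6 of those libraries held at 5.68 to 57.3 and CMP at 18.3.

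The other erythroid genes had weaker sites. Car2, carbonic anhydrase of red cells, had one at its promoter at 15.7, called in 3 of the 9. Lmo2, the bridge of the TAL1 complex, had one at a promoter at 12.7, called in 2 of the 9. Bcl11a, the repressor of fetal globin, had one 563 bp upstream of its start at 14.5, called in 4 of the 9, and a MEP peak stood 713 bp from it. Gata1 had no peak of any primary library within 10 kb, while Klf1, at 57.6 in GMP and 34.4 in MEP, and Tal1, at 29.8 and 8.15, had peaks in both lists.

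MEP-only sites were found at 1 gene of the erythroid lists and none of the megakaryocyte list. The exception was Rhag, a red cell membrane protein of the Rh complex. Its intronic site (chr17:40823827-40824377) had a −log10 p of 6.77 in MEP and rank 10937, and was called in LSK replicate 1 at 25.7, in CFUMk at 70.7 and in 11 of the 14 G1E-ER4+E2 libraries. It was called in none of CFUE, ERY and iMk, and a GMP peak at 7.66 stood 68 bp away. The megakaryocyte list had no GMP-only site either, at 25 genes. For both kinds of site its Wilson interval of 0 to 13.3% holds the share of all genes, 9.81% and 2.64%. Vwf, which encodes von Willebrand factor, had 6 GMP and 4 MEP peaks with the strongest at 57.9 and 38.1, and Itga2b, the platelet integrin αIIb, had 2 and 1 with the strongest at 42.9 and 12.3.

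**Figure D4:**
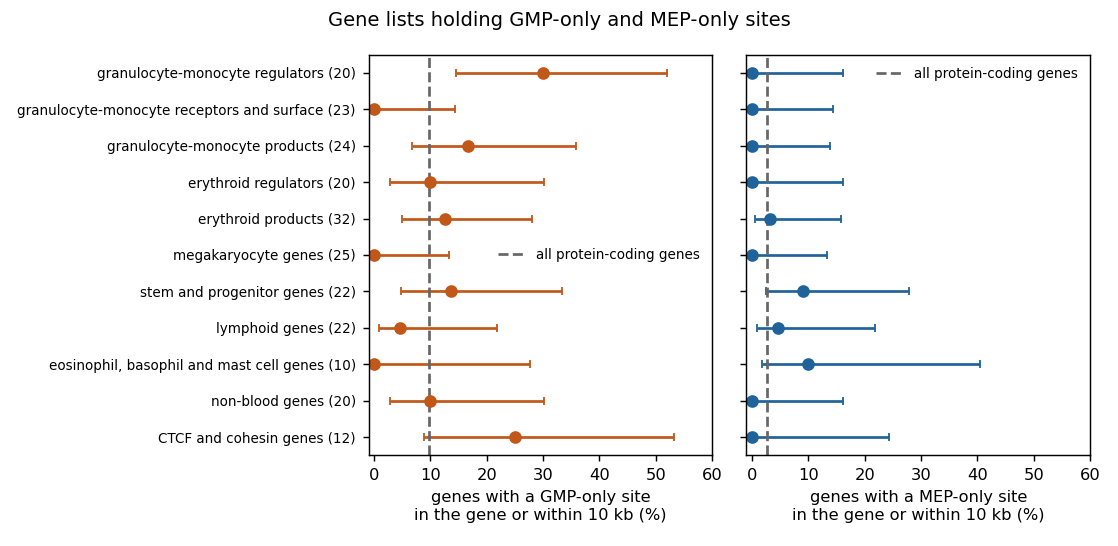
Percent of the genes of each list (rows, number of genes in brackets) with a GMP-only site (left, orange) or a MEP-only site (right, blue) in the gene or within 10 kb, with 95% Wilson intervals and a dashed line at the share of all protein-coding genes, 9.81% and 2.64%. Granulocyte-monocyte regulators lie highest on the left at 30%, and receptors and megakaryocyte genes lie at 0 on both sides.

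Stem and progenitor genes held both kinds, 3 of 22 (13.6%) with a GMP-only and 2 of 22 (9.09%) with a MEP-only site. Their Wilson intervals, 4.75 to 33.3% and 2.53 to 27.8%, hold the shares of all genes, 9.81% and 2.64%. Cd34 encodes 1 of the 2 surface markers that differed between GMP and MEP in the sort, the other being CD16/32. Its MEP-only site (chr1:194962036-194962738) lay 1108 bp past the end of the gene at a −log10 p of 9.82 in MEP, the CD34- population. It was called at 9.06 and 19.8 in LSK, 12.1 in CMP, 59.2 in CFUMk and 20.9 and 22.5 in iMk and in no erythroid library, and in 13 of the 14 G1E-ER4+E2 libraries. GMP, the CD34+ population, had a peak of 5.94 inside the gene 8710 bp from it. Runx1, a factor of stem cells and megakaryocytes, had a MEP-only site in an intron at 7.06, called in CMP at 9.09 and in CFUMk at 21.9 and in no other of the 9. Erg, Hlf and Mecom, regulators of stem cells, had GMP-only sites in introns at 18.5, 19.3 and 17.9. Each was called in both LSK libraries, in CMP and in CFUMk. None was called in an erythroid library, as was so for most GMP-only sites, of which 23.4% were called in at least 1. The Hlf site had no motif match.

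**Figure D5:**
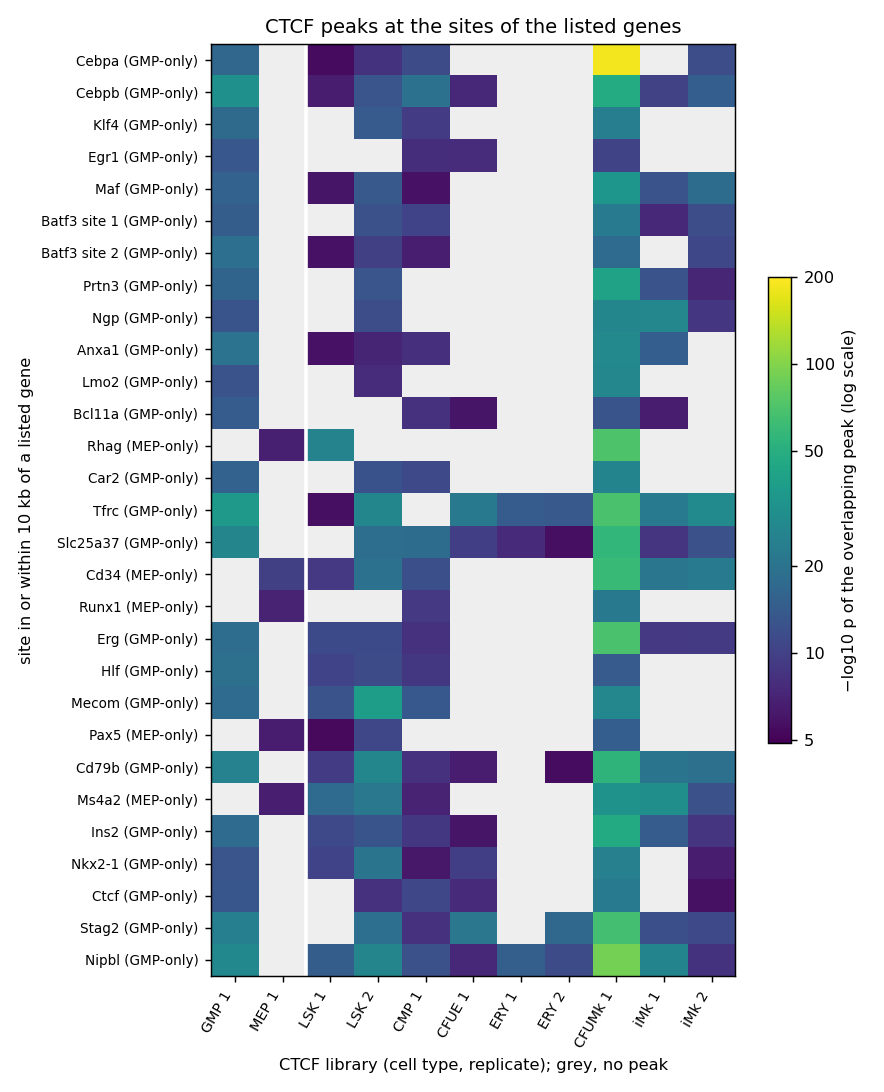
The −log10 p of the overlapping CTCF peak (colour, log scale; grey where there is none) in each of the 11 primary libraries (columns) at 29 sites in or within 10 kb of a listed gene (rows). Every row is filled in CFUMk, 22 of the 24 GMP-only rows are filled in LSK replicate 2, and most rows are grey in the 2 ERY columns.

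Lists outside the 2 fates were read in the same way. Lymphoid genes had a GMP-only site at Cd79b, a chain of the B cell receptor complex, at 25.4 and a MEP-only site at Pax5, the B cell factor, at 6.52, of 22 genes each. The Cd79b site was nearer to Gh. Eosinophil, basophil and mast cell genes had a MEP-only site at Ms4a2, a chain of the IgE receptor, at 6.66, of 10 genes. The Ms4a2 site was nearer to Ms4a6d. Non-blood genes had GMP-only sites at Ins2 and Nkx2-1, 2 of 20 (10.0%), which is close to the share of all genes. CTCF and cohesin genes had GMP-only promoter sites at 3 of 12. These were Ctcf itself at 13.2, Stag2, a cohesin subunit on chromosome X, at 24.1, and Nipbl, the cohesin loader, at 27.8, the last called in all 9 other libraries.

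The 27 GMP-only sites at listed genes were read against all 2299. A motif match was found in 24 (91.3% of all GMP-only sites), 27 were called in CFUMk (96.9% of all) and 22 in CMP (60.3% of all). At promoters lay 13 (23.4% of all), and 5 had an FDR of at most 0.05 (9.44% of all). The 27 were picked for lying in or within 10 kb of a gene. Their promoter count is therefore not comparable with that of all sites, which were not picked so. All 5 MEP-only sites at listed genes had a match (94.0% of all MEP-only sites), all were called in CFUMk (98.2% of all), and none was called in ERY, where 15.2% and 12.3% of all were. The motif and CFUMk counts were thus near those of the whole sets.

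Sites seldom gathered at 1 gene. A single GMP-only site stood at 1952 genes, 2 at 173, 3 at 19 and 4 at 5 genes, namely Fry, Lrp1 and the near-identical predicted genes Gm13694, Gm13695 and Gm13696. Lrp1, an endocytic receptor of macrophages and many other cells, had 8 GMP and 3 MEP peaks in all. A read-through annotation of over 4 Mb, Gm20388, had 8 GMP-only and 3 MEP-only sites. No other gene had more than 2 MEP-only sites, and 29 had 2, Bcas3, Kyat3 and genes of the gamma protocadherin cluster among them. A site counts for every gene within 10 kb, so overlapping or adjacent genes can count the same sites. The protocadherins overlap one another, and Gm13694, Gm13695 and Gm13696 are adjacent.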

How the data were processed

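CTCF was mapped by ChIP-seq in 1 library each of GMP and MEP. Per the study's methods, the authors aligned the reads to mm10 with Bowtie and called peaks with MACS, and per the labels an input library was made from the same cells. The submitters' processing notes name bcl2fastq 1.8.4 and Bowtie 1.0.0, and the methods name an earlier Bowtie. The deposited lists give for each peak a fold enrichment (ratio), the −log10 of its p-value, at least 5, and an FDR as a fraction. The FDR did not always fall as the −log10 p rose. Depth is unknown, and the values served to rank peaks within a list. Columns were read as deposited. Overlap meant at least 1 bp. Soft-masking and sequences came from the RefSeq GRCm38 genome, and genes from GENCODE vM21 (230 of 232 list symbols found). The matrix of 19 positions was learned from 2000 peaks over 15 rounds. Scripts used Python 3.11.15, scipy 1.17.1, pysam 0.24.0 and samtools 1.23.1, and were tested on simulated data. Members and gene lists were chosen with earlier results of these data known. The genes named are those of the lists with a GMP-only or MEP-only site, those nearest to the 10 strongest sites of each set, and those with most sites; a few are not reported here. No other gene qualified under the pattern over the other 9 libraries. Csf2rb, Cx3cr1, Csf3r, Cxcr2, Gata1, Klf1, Tal1, Vwf and Itga2b were added after their values were seen. The 18 cell line lists not assessed as Pass were not used. Alternatives covered the rank limit, repeats, overlap, list length, ranking by fold, motif, promoter and gene settings, and each library left out.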

Additional observations from a re-analysis of the deposited data

How the results depend on the processing

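With no repeat filter, with peaks within 500 bp counted as shared, or with ranking by fold, 12 of 13 results stayed the same. Shares stayed within counting error and numbers of sites within 1.5 times. The 3 tests only had to keep their sign and an adjusted p above 0.05. The exceptions were a GMP-only promoter share of 21.1% without the filter and a GMP-only motif share of 92.7% by fold. Within 500 bp no erythroid or megakaryocyte gene had a MEP-only site (0%). With the top 6000 peaks there were 451 GMP-only and 65 MEP-only sites, with promoter shares of 31.0% and 15.4%, a GMP-only motif share of 94.0%, GMP-only sites at 1.49% of granulocyte-monocyte and 2.60% of erythroid and megakaryocyte genes, and MEP-only sites at 0% of the latter. With equally long lists 3188 MEP-only sites were found, with motif shares of 92.5% (GMP-only) and 95.8% (MEP-only), and 12.99% of erythroid and megakaryocyte genes had a MEP-only site, as many as had a GMP-only site. Motif shares of GMP-only and MEP-only sites were 72.3% and 76.6% at p of 1e-05, 73.6% and 85.3% in the middle 200 bp, and 22.97% and 20.4% for the most frequent bases with 5 mismatches, and the GMP-only share was 92.6% in whole peaks. Promoters of 500 bp gave 18.5% and 7.35%. GMP-only sites were at 5.97% of granulocyte-monocyte genes without a flank and at 29.9% with 50 kb, where they were at 20.8% of erythroid and megakaryocyte genes.

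Leaving out each of the 9 libraries in turn gave differences of -33.3 to -13.2 points for MEP-only, -34.5 to -15.6 for GMP-only and -4.06 to 5.36 for MEP-only minus GMP-only sites. The last turned from 1.23 to -4.06 without CMP replicate 1 (exact permutation p = 0.214, adjusted p = 0.50). No adjusted p passed 0.05 in any setting.

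Chosen after seeing the data, GMP peaks at an FDR of at most 0.05 gave 217 GMP-only sites, 95.4% with a motif and 36.4% at promoters, at 1.49% of granulocyte-monocyte and 2.60% of erythroid and megakaryocyte genes. Without chromosome 14 from 2 to 8 Mb 2267 GMP-only sites remained. No paired analysis was possible because each cell type had 1 library. The missing depth and replicates limit every comparison of GMP with MEP.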
